A study of Bos taurus with 30 samples.

Results

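Levels of *SPP1*, the gene of the secreted phosphoprotein osteopontin, were described together with those of 3 stromal matrix genes, *CCDC80*, *PAMR1* and *CD248*, in the anterior pituitary of 30 bull calves. These 4 genes, of 27607 identifiers in the deposited table, were selected on the diet contrast in these calves, in which the mean of *SPP1* was lower and the means of the other 3 were higher on the richer diet. For that reason no p-value is given for the diet difference of any of the 4 genes, and which tests across all genes called them is stated as a description, not as evidence. Covariation of the genes among calves of the same diet was not used to choose them, and it was tested. The files list *SPP1* as ENSBTAG00000005260, *CCDC80* as ENSBTAG00000010793, *PAMR1* as ENSBTAG00000012630 and *CD248* as ENSBTAG00000044073.

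The calves were Holstein-Friesian, and each gave 1 library of poly(A) RNA. From 2 to 12 weeks of age, 15 calves received a high plane of nutrition (HI), with 10 litres of milk replacer daily (1.5 kg of powder) and unrestricted concentrates. The other 15 calves received a moderate plane (MOD), with 4 litres of milk replacer daily (0.5 kg of powder) and 0.5 kg of concentrates. The labels name no treatment other than the diet. All calves were euthanised at 12 weeks of age with intravenous sodium phenobarbital, and the pituitary was then taken. Each library came from a separate calf.

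Osteopontin is a secreted glycoprotein of mineralised matrix, epithelia and activated immune cells. It binds integrins through an arginine-glycine-aspartate motif and also binds CD44, and it is known for roles in cell adhesion, migration and mineralisation. *CCDC80* encodes a secreted protein that associates with extracellular matrix. *PAMR1* encodes a secreted protein with a domain related to serine proteases. *CD248* encodes endosialin, a transmembrane glycoprotein of pericytes and stromal fibroblasts. In the anterior pituitary, stromal and vascular cells lie among the hormone-producing endocrine cells.

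In a RefSeq gene table of assembly ARS-UCD2.0, a different build from the ARS-UCD1.2 genome used for the deposited values, *SPP1* stood between *PKD2* and *MEPE*. *MEPE* encodes another secreted phosphoprotein of mineralised matrix. *CCDC80* stood between *SLC35A5* and *CD200R1L*, *PAMR1* between *SLC1A2* and *FJX1*, and *CD248* between *TMEM151A* and *RIN1*. The 4 genes thus had no neighbour in common. Other genes could be named only where the study pairs an identifier with a symbol. For that reason the labelled tissue was not checked against pituitary hormone genes, and markers of fibroblasts, pericytes, macrophages and endothelium were not analysed here.

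Total reads assigned to genes ranged from 14.7 M to 26.9 M in the libraries other than HI replicate 3, which had 23.96 M (M, reads in units of 1000000). HI replicate 3 stood apart from the rest. Its scaling factor was 0.510 against 0.894 to 1.15 in the other 29 libraries, reads fell on 16940 genes against 18317 to 18975, and its mean correlation with the other libraries over the genes tested was 0.782 against 0.953 to 0.973. It held 45.5% of the squared deviation from each gene's mean over all 30 libraries, summed over the genes tested. Any other library held at most 3.92%. The mean levels, the fitted diet differences and the correlations of the 4 genes with each other are given below with and without it.

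*SPP1* was the gene with fewer transcripts in HI calves. Its level in HI calves ran from 349 normalised CPM (reads scaled to an effective library size of 1000000) in replicate 12 through a median of 697 to 1192 in replicate 3. In MOD calves it ran from 732 through a median of 1159 to 1965 in replicate 11. The mean was 731 ± 211 CPM (SD, n = 15) on the HI diet and 1170 ± 336.5 CPM (SD, n = 15) on the MOD diet, so the MOD mean was 1.60 times the HI mean. In bulk tissue, fewer cells that express a gene and less RNA of that gene per cell cannot be told apart.

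The *SPP1* values of the diets overlapped. Of the 15 HI calves, 14 lay below the MOD median and 9 below the lowest MOD calf, and 6 MOD calves lay above the highest HI calf. For background, 1.04% of all genes tested had at least 14 HI calves below the MOD median. When each HI calf was set against each MOD calf, *SPP1* was lower in the HI calf in 201 of 225 pairs. The share of all genes was not computed for counts beyond the range of the other diet or for counts of pairs. For each of the 4 genes, such counts only describe the contrast that chose the gene.

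HI replicate 3 was the HI library with the most *SPP1*, and it was also the HI calf above the MOD median. Without it, the HI mean was 698 ± 175 CPM (SD, n = 14), the highest HI value was 1118 in replicate 2, and 14 of 14 HI calves lay below the MOD median. The place of HI replicate 3 depended on the scaling. Scaled by its own total reads it had 608 CPM of *SPP1*, inside the range of 376 to 1114 of the other HI calves and below the lowest MOD calf at 715. *SPP1* was well covered, with 8228 to 47340 reads per library. The coefficient of variation among calves was 28.9% in HI and 28.8% in MOD, whereas counting error alone would give 0.837% and 0.658%.

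*CCDC80* was the gene whose spread differed most in size between the diets. HI calves ranged from 5.89 CPM in replicate 3 through a median of 11.9 to 27.9 in replicate 2, and MOD calves from 6.85 through 8.98 to 11.5. The mean was 13.3 ± 5.81 CPM (SD, n = 15) on the HI diet and 8.96 ± 1.63 CPM (SD, n = 15) on the MOD diet, with coefficients of variation of 43.7% and 18.2%. Counting error alone would give 6.75% and 7.37%, at 72 to 665 reads per library. On *CCDC80*, 2 HI calves lay below the whole MOD range while 8 HI calves lay above it. The share of all genes with such counts was not computed.

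The MOD median of *CCDC80* was exceeded in 12 of 15 HI calves, and 6.55% of all genes tested had at least that many. The HI calf was higher in 169 of 225 pairs. HI replicate 3, the lowest calf for this gene, had 3.01 CPM when scaled by its own total reads, against 6.22 to 27.8 CPM in the other HI calves, so it was lowest in HI on both scales. Without it, the HI mean was 13.8 ± 5.64 CPM (SD, n = 14).

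*PAMR1* had more HI calves above the whole MOD range than *CCDC80* or *CD248*. HI calves ranged from 11.6 CPM in replicate 3 through a median of 23.0 to 31.7 in replicate 12, and MOD calves from 9.66 through 14.4 to 20.2. The mean was 22.4 ± 6.34 CPM (SD, n = 15) on the HI diet and 14.5 ± 3.16 CPM (SD, n = 15) on the MOD diet. Of the HI calves, 13 lay above the MOD median, a count that 2.9% of all genes tested reached. Above the highest MOD calf lay 10 HI calves, a count for which the share of all genes was not computed.

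The 2 HI calves below the MOD median for *PAMR1* were replicate 3 and replicate 2, at 11.7 CPM, and these were the 2 HI calves with the most *SPP1*. Replicate 12, the HI calf with the least *SPP1*, had the most *PAMR1*. Read numbers of *PAMR1* ran from 142 to 747, and the HI calf was higher in 189 of 225 pairs. Without HI replicate 3, the HI mean was 23.1 ± 5.81 CPM (SD, n = 14).

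*CD248* had the fewest reads of the 4 genes. HI calves ranged from 0.744 through a median of 1.30 to 1.956 CPM, and MOD calves from 0.237 in replicate 15 through 0.777 to 1.48 in replicate 1. These values rested on 15 to 48 reads per HI library and 4 to 27 reads per MOD library. The mean was 1.30 ± 0.347 CPM (SD, n = 15) on the HI diet and 0.818 ± 0.301 CPM (SD, n = 15) on the MOD diet. The coefficients of variation of 26.6% and 36.8% were not far above the 20.02% and 26.4% that counting error alone would give.

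The MOD median of *CD248* was exceeded in 14 of 15 HI calves, and 0.917% of all genes tested had at least that many. The HI calf was higher in 194 of 225 pairs. *CD248* exceeded 1 CPM in 12 HI and 3 MOD libraries, exactly the 15 that the filter on low values required, so it entered the test through the diet in which it was higher. Without HI replicate 3, the HI mean was 1.30 ± 0.359 CPM (SD, n = 14).

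**Figure D1:**
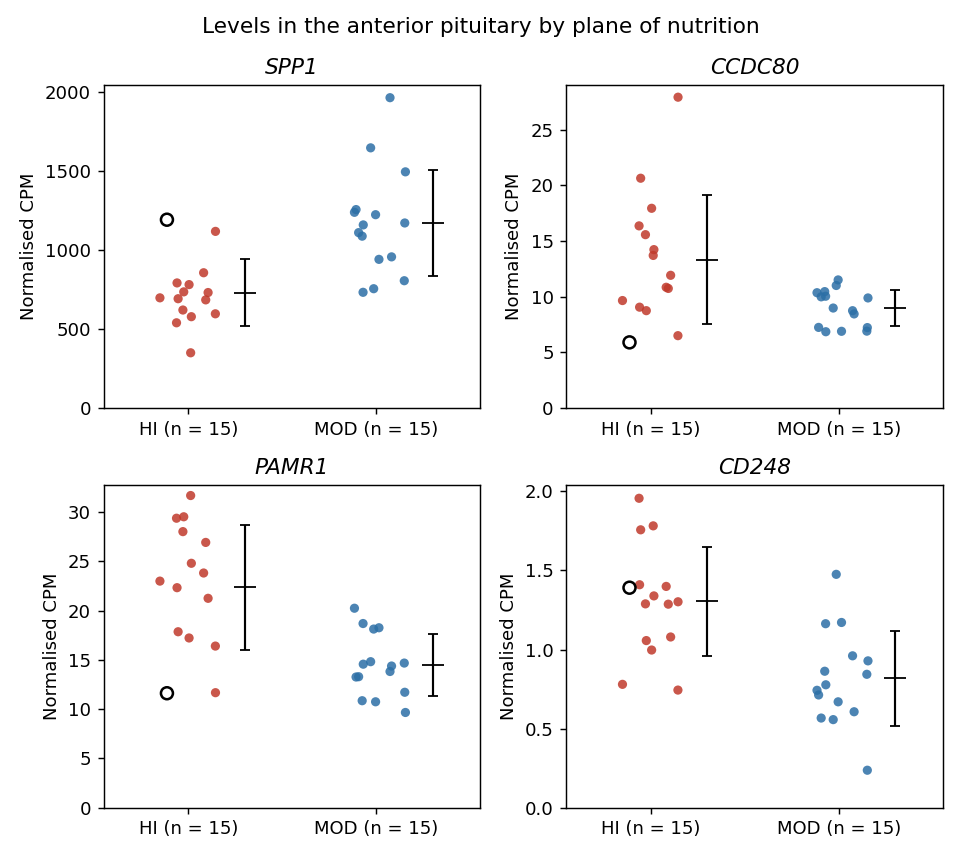
Levels of *SPP1*, *CCDC80*, *PAMR1* and *CD248* in each calf by diet, in normalised CPM on the y axis, with the mean and SD beside the points. *SPP1* lay lower in HI calves and the other 3 genes lay higher, the diets overlapped for every gene, and HI replicate 3 was the highest HI calf for *SPP1* and the lowest for *CCDC80* and *PAMR1*.

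Set against each other as fitted differences, the 4 genes ran in opposite directions by sizes of the same order. On the log2(CPM + 1) scale the HI minus MOD difference of *SPP1* was -0.68 ± 0.15 (SE). Those of the other genes were 0.44 ± 0.15 for *CCDC80*, 0.57 ± 0.13 for *PAMR1* and 0.35 ± 0.09 for *CD248*. Without HI replicate 3 they were -0.74, 0.51, 0.63 and 0.34. The added pseudocount compresses the value of *CD248*, whose log2 fold change on the recovered reads was 0.69 in the edgeR likelihood-ratio test. Among the 16 libraries of title series 78 alone, the largest set of similar sample numbers, the difference of *CCDC80* was 0.24, or 0.35 without HI replicate 3, while those of *SPP1* and *PAMR1* were -0.54 and 0.53.

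Whether a gene was called rested on the test and on HI replicate 3. Under limma with all libraries, 0 of the 4 genes and 0 of 14290 genes tested (0%) were called at an adjusted p under 0.1 with a fold change over 1.5, and 933 genes had an unadjusted p under 0.05. The edgeR quasi-likelihood test also called 0 genes, with 1287 at an unadjusted p under 0.05. The edgeR likelihood-ratio test called 26 genes (0.182%), among them *SPP1*, *PAMR1* and *CD248*, and DESeq2 called 26 with the same 3 genes. With HI replicate 3 left out, limma called 11 genes (0.077%), among them *SPP1* and *PAMR1*, and the likelihood-ratio test called 38 (0.266%), among them all 4. Leaving out HI replicate 2 gave 8 calls in limma (0.0561%), again with *SPP1* and *PAMR1*, in a fit that did not test *CD248*. Since this contrast chose the genes, nothing follows from these counts about them.

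The opposite direction could also be described within a library. The ratio of *SPP1* reads to the reads of another gene cannot be changed by scaling the library. Since *SPP1* was chosen as lower and the other 3 genes as higher in HI calves, lower mean ratios in HI were fixed by that choice. They are a description and not a further result, and shares over other pairs of genes were not computed. The log2 ratio of *SPP1* to *PAMR1* reads averaged 5.03 ± 0.822 (SD, n = 15) on the HI diet and 6.31 ± 0.610 (SD, n = 15) on the MOD diet, and 12 HI calves lay below the lowest MOD calf. The ratio to *CD248* averaged 9.09 ± 0.631 and 10.5 ± 0.809, with 15 of 15 HI calves below the MOD median and 12 MOD calves above the highest HI calf. The ratio to *CCDC80* averaged 5.84 ± 0.771 and 6.99 ± 0.478. HI replicate 3 had the highest *SPP1* to *CCDC80* ratio of the HI calves, at 7.65, and 1 of 15 MOD calves lay above it. Without it, 13 of 15 MOD calves lay above the highest HI calf, at 6.51. The HI minus MOD difference was -1.15 for *CCDC80*, -1.28 for *PAMR1* and -1.39 for *CD248*. These were -1.28, -1.40 and -1.44 without HI replicate 3.

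**Figure D2:**
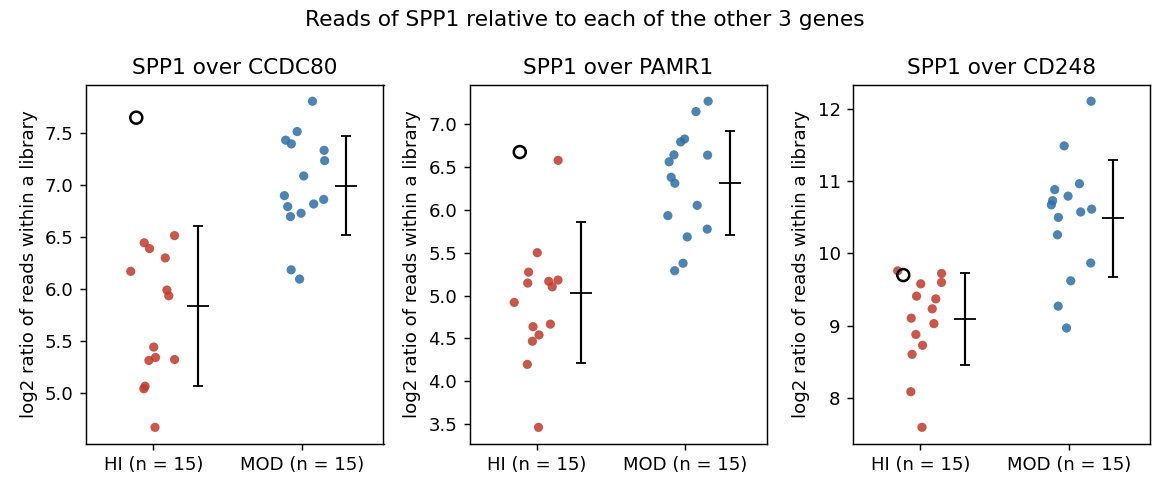
Log2 ratio of *SPP1* reads to the reads of *CCDC80*, *PAMR1* or *CD248* in each calf (y axis), by diet, with mean and SD. MOD calves lay higher in each ratio, and HI replicate 3, at 7.65, was the highest HI calf in the ratio to *CCDC80*.

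Among calves of the same diet, *SPP1* and *PAMR1* ran opposite to each other. Deviations from the diet means of their log2 levels had a Pearson r of -0.615 over 30 calves (permutation p = 0.00036, adjusted over 6 pairs 0.00216) and a Spearman rho of -0.503 (permutation p adjusted 0.0333). The 2 calves farthest from the median of *SPP1* were HI replicate 12 and MOD replicate 11, and r was -0.623 without them. By size of r with *SPP1*, *PAMR1* stood at rank 110 of 14289 genes, and at rank 245 without HI replicate 3. By size of r with *PAMR1*, *SPP1* stood at rank 66, and at rank 118 without HI replicate 3.

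The relation of *SPP1* with *PAMR1* was smaller without HI replicate 3 and still passed the test by Pearson's r. Without that library r was -0.545 (permutation p adjusted 0.0167) and rho was -0.454 (adjusted p = 0.0883), and leaving out each library in turn gave r from -0.658 to -0.545. Without both HI replicate 2 and HI replicate 3, r was -0.445 (permutation p = 0.0194 before adjustment, chosen after seeing the data). In HI calves r was -0.741, or -0.649 without replicate 3, and in MOD calves it was -0.441 (permutation p = 0.0994). The difference between the diets in r was -0.301 (permutation p = 0.253, adjusted over 6 pairs 0.937), so a difference between diets was not shown.

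The size of this relation depended on how libraries were scaled. On levels scaled by library totals with HI replicate 3, r was -0.280 and did not pass (permutation p = 0.125, adjusted over the pairs 0.166). Leaving that library out gave an r of -0.463 on this scale (permutation p = 0.0128 before adjustment). No adjusted p was computed for that setting, so a pass was not shown under library totals. Within title series 78, r was -0.652 over 16 calves and -0.554 without HI replicate 3. With the title series as a covariate, r was -0.583. The other series held 1 to 5 libraries of each diet, too few for a value of their own.

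**Figure D3:**
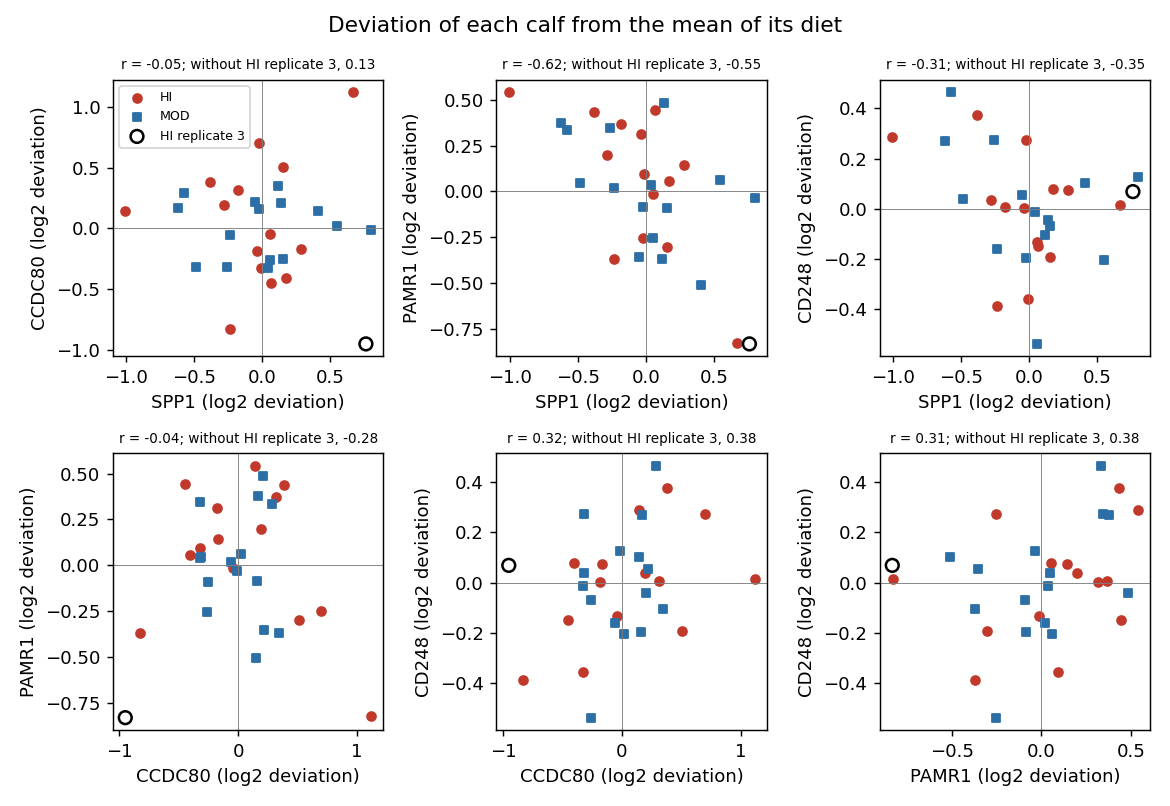
Deviation of each calf from its diet mean in log2(CPM + 1), for the 6 pairs of the 4 genes, coloured by diet. *SPP1* is on the x axis in its pairs, *CCDC80* in its pairs with *PAMR1* and *CD248*, and *PAMR1* in its pair with *CD248*. Calves with more *SPP1* than their diet mean had less *PAMR1*, with r of -0.615 in 30 libraries and -0.545 without HI replicate 3, and no such slope was shown for *CCDC80*, at -0.046.

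No pair among the 3 genes with higher HI means passed the test among calves of the same diet. A pair passed where the permutation p, adjusted over the 6 pairs, was under 0.05. *CCDC80* and *PAMR1* had an r of -0.039, or -0.280 without HI replicate 3, and *SPP1* and *CCDC80* an r of -0.046, or 0.130 without HI replicate 3. *CD248* had an r of 0.322 with *CCDC80*, 0.313 with *PAMR1* and -0.309 with *SPP1* (permutation p = 0.0790, 0.0909 and 0.102, adjusted 0.153 for each). These were 0.385, 0.377 and -0.354 without HI replicate 3, with adjusted p of 0.0915, 0.0915 and 0.0961, so none passed.

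The pairs of *CD248* with *CCDC80* and *PAMR1* passed under another scaling, and under that scaling only with HI replicate 3 included. Scaled by library totals, *CD248* had an r of 0.485 with *CCDC80* and 0.474 with *PAMR1* (permutation p adjusted 0.0284 for each). Without HI replicate 3, which on that scale was the lowest HI calf for each of these 3 genes, r was 0.380 (permutation p = 0.0460) and 0.363 (permutation p = 0.0585) before adjustment. On normalised CPM without both HI replicate 2 and HI replicate 3, *CD248* had an r of 0.443 with *CCDC80* (permutation p = 0.0190). With *PAMR1* it had an r of 0.451 (permutation p = 0.0186). Both p-values are before adjustment, in a setting chosen after seeing the data. The sign of *CCDC80* with *PAMR1* was not stable, since leaving out single libraries gave r from -0.280 to 0.233. For *SPP1* with *CCDC80* it was not stable either, with r from -0.253 to 0.130. None of the 6 differences between the diets in r passed the test (adjusted p = 0.937 for each, and 0.866 for each without HI replicate 3).

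**Figure D4:**
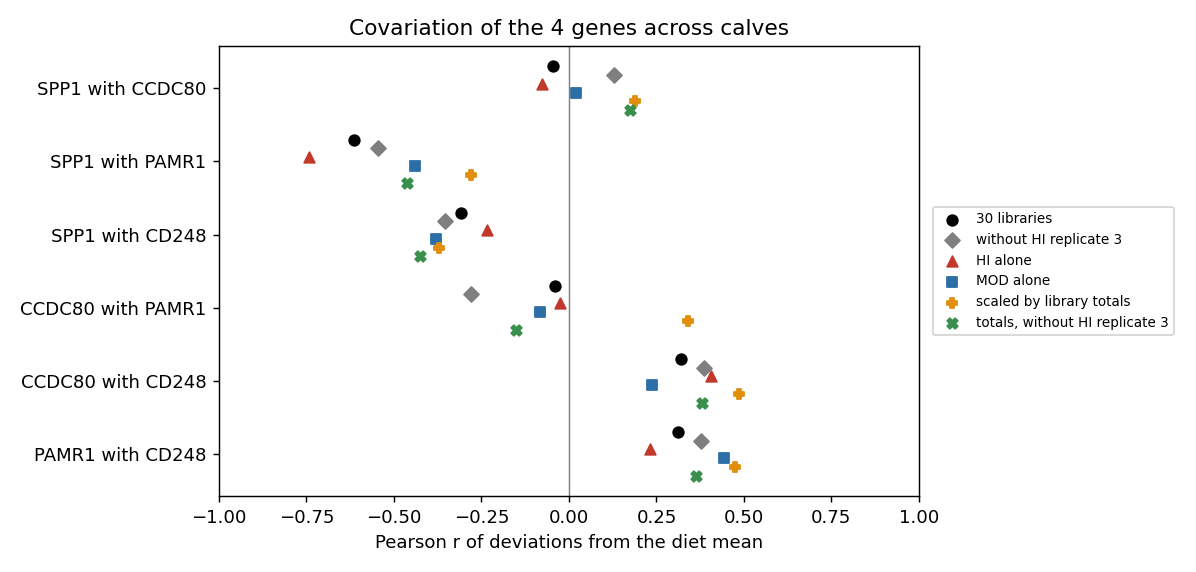
Pearson r of deviations from the diet mean (x axis) for the 6 pairs of the 4 genes, with all 30 libraries, without HI replicate 3, within each diet, and scaled by library totals with and without HI replicate 3. *SPP1* with *PAMR1* was negative in each setting drawn, from -0.741 to -0.280, and the pairs of *CCDC80* with *SPP1* and with *PAMR1* changed sign.

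No relation of the 4 genes with 2 measures of the libraries themselves passed the test. Over 8 relations, of each gene with total reads and with the share of reads in the 2 most abundant genes, r ranged from -0.318 to 0.226 (permutation p adjusted 0.413 to 0.969). It ranged from -0.204 to 0.266 without HI replicate 3 (adjusted p from 0.663 to 0.696). Relations with the scaling factor and with the number of genes with a read, in which HI replicate 3 stood apart, were not tested.

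Covariation was then asked of 6 other secreted proteins that the study pairs with identifiers, in 24 relations chosen after seeing the data. These were *WNT11*, a Wnt ligand, *BMPER*, a secreted regulator of bone morphogenetic protein signalling, *ANGPTL7*, an angiopoietin-like protein, *SERPINA1*, the inhibitor alpha-1-antitrypsin, *NPTX1*, a neuronal pentraxin, and *WFDC1*, a secreted protein with a whey acidic protein domain. All 6 come from the list the study made on the diet contrast in these calves.

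*SPP1* ran with *WNT11*. The r was 0.653 over 30 calves (permutation p = 0.00016, adjusted over 24 relations 0.00384) with a rho of 0.602 (adjusted p = 0.0151). In HI calves r was 0.741 and in MOD calves 0.542. HI replicate 3 had the most *WNT11* of the HI calves, at 10.6 CPM, and without it r was 0.585 (permutation p adjusted 0.0144) and the adjusted p of rho was 0.0847. Without the 2 calves farthest from the median of *SPP1*, r was 0.582. Scaled by library totals it was 0.506 (permutation p = 0.00436), and in title series 78 it was 0.701, or 0.608 without HI replicate 3.

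By Pearson's r, *PAMR1* ran opposite to *BMPER* and *SPP1* ran with it, but neither relation passed by rho. The r of *PAMR1* with *BMPER* was -0.599 (permutation p adjusted 0.00456, adjusted p of rho 0.0536), and -0.496 without HI replicate 3 (permutation p adjusted 0.0363). Without the 2 calves farthest from the median of *PAMR1* it was -0.539, and in title series 78 it was -0.818, or -0.750 without HI replicate 3. Scaled by library totals it was -0.353, and -0.337 without HI replicate 3 (permutation p = 0.0597). The r of *SPP1* with *BMPER* was 0.515 (permutation p adjusted 0.0390, adjusted p of rho 0.161). Without HI replicate 3, which had the most *BMPER* of the HI calves at 3.60 CPM, it was 0.420 and no longer passed (permutation p adjusted 0.113). Without the 2 calves farthest from the median of *SPP1* it was 0.532. By size of r, *BMPER* stood at rank 641 of 14289 genes with *SPP1* and at rank 98 with *PAMR1*. For *SPP1*, 95% of genes had an r smaller in size than 0.508, so 0.515 was near that background.

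*CCDC80* showed relations that turned on single calves. Its r with *ANGPTL7* was 0.550 (permutation p adjusted 0.0557) with all libraries, 0.644 (adjusted 0.0144) without HI replicate 3, and 0.263 without HI replicate 2. Without the 2 calves farthest from the median of *CCDC80* it was 0.381. HI replicate 2 had the most *CCDC80*, the most *ANGPTL7* at 51.5 CPM and the most *SERPINA1* at 86.4 CPM. The r of *CCDC80* with *WNT11* was 0.108, and 0.506 without HI replicate 3 (permutation p adjusted 0.0468). No relation of *CD248* with the 6 genes passed the test.

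**Figure D5:**
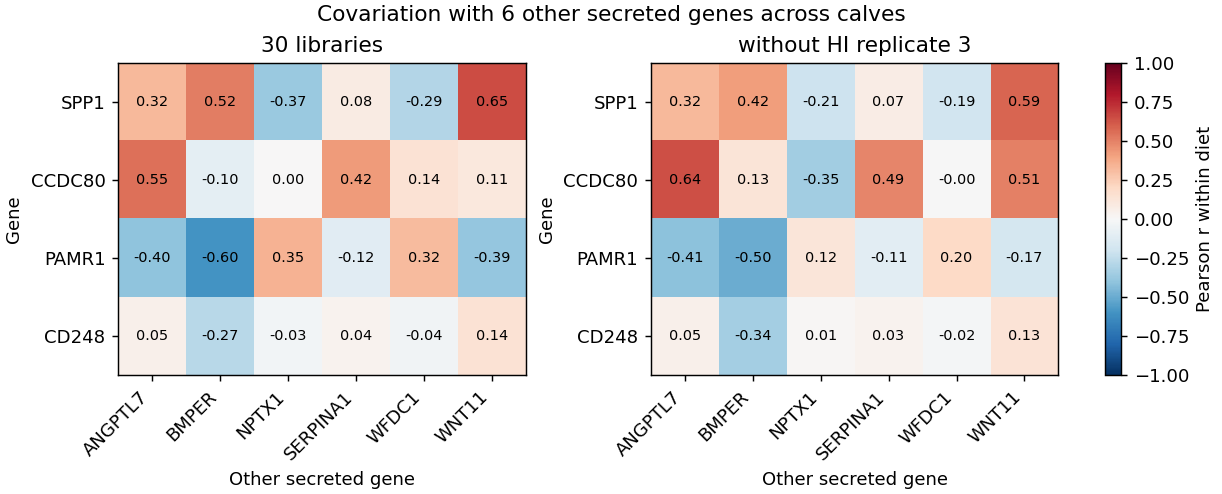
Pearson r of deviations from the diet mean for *SPP1*, *CCDC80*, *PAMR1* and *CD248* against 6 other secreted genes, with 30 libraries and without HI replicate 3. *SPP1* with *WNT11* was the largest positive relation with 30 libraries, at 0.653, and *PAMR1* with *BMPER* the largest negative one, at -0.599.

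Over all genes tested, those closest to each of the 4 genes differed from gene to gene. The largest r with *SPP1* was 0.836 for ENSBTAG00000022656, the largest with *PAMR1* was 0.806 for ENSBTAG00000011382, the largest with *CCDC80* was 0.837, and the largest in size with *CD248* was -0.795 for ENSBTAG00000019857. The files do not pair these identifiers with names. The first gene was the same without HI replicate 3 for each of the 4, whereas of the 5 closest genes 3 were shared for *SPP1*, 3 for *CCDC80*, 2 for *PAMR1* and 1 for *CD248*. No gene was among the 5 closest of more than 1 of them. As background, 95% of genes had an r smaller in size than 0.508 with *SPP1*, 0.485 with *CCDC80*, 0.494 with *PAMR1* and 0.418 with *CD248*. The corresponding sizes without HI replicate 3 were 0.460, 0.464, 0.420 and 0.514.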

How the data were processed

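Per the labels, RNA of 30 anterior pituitaries (15 HI, 15 MOD) was made into stranded libraries. The authors trimmed reads with cutadapt 2.6, aligned them to ARS-UCD1.2 with STAR 2.6.1 and tested in edgeR. These versions are those of the submitters' processing notes, and the study's methods name other versions of cutadapt and STAR. Which of them made the deposited values was not determined. The authors deposited a normalised signal per gene and library, namely gene reads scaled to an effective library size (CPM). Whole reads were recovered for 100% of 556895 nonzero values, within 0.01 of a read, and 5141 genes had no read.

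Levels were taken as log2(value + 1) and fitted with limma 3.58.1 (eBayes with trend) in R 4.3.3, for the 14290 genes over 1 CPM in at least 15 libraries, with no covariate. P-values were adjusted over all these genes (Benjamini-Hochberg). A call needed a fold change over 1.5 with an adjusted p under 0.1. As alternatives, edgeR 4.0.16 (quasi-likelihood and likelihood-ratio tests) and DESeq2 1.42.0 were run on the recovered reads.

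Covariation used deviations from the diet means, in Python 3.11.15 with NumPy 2.4.6, and 100000 two-sided permutations within diet, or of diet labels for differences between diets. A correlation passed at an adjusted p under 0.05. Log ratios of reads had 0.5 added to each read number. Title series are the digits 2 to 3 of each sample number, whose meaning is not stated. Other alternatives were pseudocounts, filters, scaling by library totals, and each library left out. Replicates were numbered in accession order and pair no calves. No pair of libraries of the same diet agreed within sampling noise, and pairs across the diets were not checked.

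The 4 genes, and the 6 other secreted genes, were chosen with earlier results of these data known. The text names these 10 genes and the genes with the largest correlation with each of the 4. Symbols came from the study, and 0 Ensembl identifiers matched the RefSeq table, so lists of receptors, collagens and cell type markers were not analysed here. Without transcript lengths, levels were not compared between genes. Procedures were tested on simulated data.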

Additional observations from a re-analysis of the deposited data

How the results depend on the processing

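No paired analysis was possible because the calves' blocks (age, bodyweight, sire and farm) are not in the labels. Each recomputed diet difference of the 4 genes kept its direction. The number of genes called, 0 under limma with all libraries, was 2 with scaling by library totals (with or without HI replicate 3), 26 in the edgeR likelihood-ratio test and in DESeq2, 0 to 11 with each library left out in turn, and 1 in title series 78 without HI replicate 3. Without HI replicate 3 it was 15 in the quasi-likelihood and 37 in the likelihood-ratio test, and with the genes that pass in 30 libraries it was 11 in limma, 15 and 38. *CD248* passed the filter in exactly 15 libraries, so it fell under the filter when any of these was left out, HI replicates 2 and 3 among them. Its log2 difference was 0.65 with a pseudocount of 0.1, 0.68, 0.69 and 0.69 in the quasi-likelihood, likelihood-ratio and DESeq2 tests, and 0.67 and 0.68 in the first and second of these without HI replicate 3. The smaller pseudocount compresses low levels less.

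The r of *SPP1* with *PAMR1* kept its sign, with -0.280 under library totals, -0.441 in MOD and -0.658 to -0.545 with a library left out. The r of *SPP1* with *CCDC80* turned to 0.190 under library totals (0.174 without HI replicate 3), 0.0197 in MOD, 0.204 in HI without replicate 3, 0.0927 in series 78 (0.375 without HI replicate 3) and 0.0577 with the series as a covariate, and lay between -0.253 and 0.130 when single libraries were left out. The r of *SPP1* with *CD248* was -0.372 under library totals (-0.426 without HI replicate 3), -0.388 without HI replicates 2 and 3, 0.0706 in series 78, and -0.381 to -0.225 with a library left out. The r of *CCDC80* with *PAMR1* was 0.341 under library totals, 0.343 without the 2 farthest libraries, and -0.280 to 0.233 with a library left out. *CD248* with *CCDC80* gave 0.485 and 0.380 under library totals with and without HI replicate 3, 0.443 without HI replicates 2 and 3, and 0.226 to 0.385 with a library left out. In series 78 this pair gave 0.314 (0.462 without HI replicate 3), and 0.202 with the series as a covariate. *CD248* with *PAMR1* gave 0.474 under library totals, 0.451 without HI replicates 2 and 3, and 0.260 to 0.377 with a library left out. In series 78 it gave only 0.0466 (0.168 without HI replicate 3), and 0.205 with the series as a covariate. Differences between diets in r turned to 0.161, 0.0904 and 0.211 under library totals for *SPP1* with *CCDC80*, *SPP1* with *PAMR1* and *PAMR1* with *CD248*, and to 0.184 and -0.283 without HI replicate 3 for *SPP1* with *CCDC80* and *CCDC80* with *PAMR1*. The r of *PAMR1* with total reads turned from -0.00668 to 0.0712 without HI replicate 3. The cause of these changes was not tested. Depth limited *CD248* most, at 4 to 48 reads per library.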
